A study of Mus musculus with 50 samples.

Results

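Immediate early genes are the genes that neurons transcribe first, without new protein synthesis, when calcium entry and kinase signalling follow synaptic activity. Many encode transcription factors that act on slower genes in the nucleus, while others act at the synapse itself. Arc messenger RNA is carried into dendrites and translated near active synapses. Here the levels of 10 such genes, Arc, Fos, Fosb, Junb, Egr1, Egr2, Egr4, Nr4a1, Npas4 and Homer1, were followed across 5 groups of mice and between single mice. They were chosen by name from the 17850 genes on the array, with earlier results of these data known. For each gene the probe with the highest mean signal over all 50 arrays was used. The file listed 9 genes under their current symbols and Npas4 under the older symbol Nxf. Of the 10 genes, 9 passed a filter on dim probes (above background on at least 9 arrays), and Nr4a1 did not.

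RNA was prepared from synaptosomes of the frontal cortex, which are resealed nerve terminals with attached postsynaptic membrane, and each array held the RNA of 1 mouse. All mice had a CD1 background and an age of 17 to 21 days. The knockouts lacked Sod2, the manganese superoxide dismutase of mitochondria, constitutively, and so in all cells and not in neurons alone. The compound was a catalytic antioxidant of the EUK series, named EUK8 in the sample titles and EUK189 in the treatment field, so which of them was given is not settled by the labels. The groups were 9 untreated wild types, 11 wild types and 10 knockouts at the low dose (1 mg/kg), and 10 wild types and 10 knockouts at the high dose (30 mg/kg). No untreated knockouts were analysed here, and the compound in knockouts was followed by setting its doses against each other.

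Median signals of the arrays lay between 54.1 and 78.0, and 10125 to 12573 of the 25697 probes were above background on an array. The arrays lay on 7 chips, of which 6 held knockouts. Markers of excitatory cortical neurons (8 of 10, among them Slc17a7 and Camk2a) and presynaptic genes (9 of 10) passed the filter, while the cortical neuron marker Neurod6 was above background on 0 of 50 arrays. All 10 astrocyte and all 12 microglia markers also passed. The Sod2 signal was 0.41 ± 0.10 (SE) log2 units higher in low-dose knockouts than in low-dose wild types (adjusted p = 0.00117). Where its probe lies relative to the deletion is not given, so this signal does not check the labels, and the knockout groups are named as labelled.

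Several of the genes are known as targets of CREB, which binds the cyclic AMP response element, and of SRF, which binds the CArG box. RefSeq promoters (mouse build GRCm38.p6, 250 bases before to 50 after an annotated start) were found for 8 of the 10 genes, in 13 windows, and Arc and Egr1 were not matched. The promoters found are shown for genes whose levels moved together between mice, and for Homer1, whose chosen probe did not move with them. Capitals mark TGACG, the core of the cyclic AMP response element, on either strand (CGTCA is its reverse complement), the CArG box, and TATAAA.
Fos, chr12:85473640-85473939, plus strand: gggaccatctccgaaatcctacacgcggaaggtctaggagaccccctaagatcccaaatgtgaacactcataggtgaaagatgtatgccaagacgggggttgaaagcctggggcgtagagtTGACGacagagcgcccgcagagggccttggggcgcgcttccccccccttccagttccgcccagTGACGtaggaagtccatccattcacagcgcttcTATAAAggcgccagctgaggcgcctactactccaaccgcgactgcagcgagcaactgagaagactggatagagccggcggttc
Junb, chr8:84978699-84978998, minus strand: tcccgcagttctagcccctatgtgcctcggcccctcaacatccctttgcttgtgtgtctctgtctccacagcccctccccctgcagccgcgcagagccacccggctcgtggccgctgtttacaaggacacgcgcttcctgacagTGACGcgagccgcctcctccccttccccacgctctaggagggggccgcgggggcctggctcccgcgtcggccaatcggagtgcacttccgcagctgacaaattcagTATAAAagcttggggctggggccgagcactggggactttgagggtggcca
Fosb, chr7:19309996-19310295, minus strand: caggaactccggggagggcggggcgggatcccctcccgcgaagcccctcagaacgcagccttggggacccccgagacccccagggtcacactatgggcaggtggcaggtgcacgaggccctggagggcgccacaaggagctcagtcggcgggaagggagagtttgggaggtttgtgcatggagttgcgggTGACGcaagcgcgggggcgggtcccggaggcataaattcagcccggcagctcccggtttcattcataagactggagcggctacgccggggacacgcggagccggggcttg
Egr2, chr10:67537619-67537918, plus strand: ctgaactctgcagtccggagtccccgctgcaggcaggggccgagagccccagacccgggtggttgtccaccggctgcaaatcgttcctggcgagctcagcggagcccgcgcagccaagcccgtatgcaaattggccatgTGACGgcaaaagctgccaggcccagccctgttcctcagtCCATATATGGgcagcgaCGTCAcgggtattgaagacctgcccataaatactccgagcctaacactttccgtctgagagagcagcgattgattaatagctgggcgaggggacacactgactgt
Egr4, chr6:85513540-85513839, minus strand: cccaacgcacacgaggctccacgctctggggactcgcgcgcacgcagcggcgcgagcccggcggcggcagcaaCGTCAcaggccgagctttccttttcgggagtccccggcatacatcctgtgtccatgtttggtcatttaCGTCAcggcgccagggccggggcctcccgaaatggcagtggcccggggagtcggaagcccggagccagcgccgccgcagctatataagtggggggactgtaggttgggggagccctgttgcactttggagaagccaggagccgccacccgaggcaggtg
Npas4, chr19:4989922-4990221, minus strand: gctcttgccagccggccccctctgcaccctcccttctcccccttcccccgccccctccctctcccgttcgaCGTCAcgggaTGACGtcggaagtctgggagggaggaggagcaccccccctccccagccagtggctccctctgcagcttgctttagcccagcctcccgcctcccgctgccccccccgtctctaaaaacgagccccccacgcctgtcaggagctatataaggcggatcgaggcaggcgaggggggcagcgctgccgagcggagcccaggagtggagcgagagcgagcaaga
Homer1, chr13:93303507-93303806, plus strand: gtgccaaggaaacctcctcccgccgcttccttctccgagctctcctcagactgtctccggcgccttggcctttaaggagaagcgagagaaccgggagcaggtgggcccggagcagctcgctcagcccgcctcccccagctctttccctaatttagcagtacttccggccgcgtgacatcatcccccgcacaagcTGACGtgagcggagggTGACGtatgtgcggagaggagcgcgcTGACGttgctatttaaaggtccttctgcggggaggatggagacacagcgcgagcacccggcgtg

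TGACG was found in 10 of the 13 windows, compared with 20.8% of the 32851 promoters searched, which leave out chromosome 18. Several Egr2 windows overlap and hold the same sites, so the 10 windows are not all separate promoters. By gene, TGACG was in at least 1 window of each of the 8, and the 20.8% is a share of windows and not of genes. The full palindrome TGACGTCA was in 0 of the 13 windows, compared with 1.79% of all promoters. The CArG box was in 4 windows, all of Egr2 and in part overlapping, compared with 1.63% of all promoters. TATAAA was in the windows of Fos and Junb, compared with 13.6%. The EGR motif GCGTGGGCG was in none, compared with 0.612%. Both strands were searched in each case. These matches describe the letters of the windows and do not show binding.

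Arc, whose protein controls the removal of AMPA receptors from the synapse, was the member with the largest difference between groups. In untreated, low-dose and high-dose wild types the lowest, median and highest log2 levels were 7.56, 8.04 and 9.43, then 7.58, 8.32 and 10.13, and then 7.19, 8.69 and 10.28. In low-dose knockouts they were 6.07, 6.70 and 7.40, and in high-dose knockouts 5.91, 7.68 and 8.38. Every low-dose knockout lay below every untreated and every low-dose wild type, while the high-dose knockouts overlapped all other groups. Arc fell by 1.92 ± 0.34 log2 units in low-dose knockouts relative to low-dose wild types, a 3.79-fold lower level (adjusted p = 2.76e-05), and was 3.48-fold lower than in untreated wild types (adjusted p = 9.48e-05). It was lower in low-dose knockouts on 6 of 6 chips in both comparisons, where on each chip the knockouts or the wild types were a single mouse. In a tissue extract a lower level can come from fewer cells or terminals that hold the RNA or from less RNA in each, and these cannot be told apart.

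**Figure D1:**
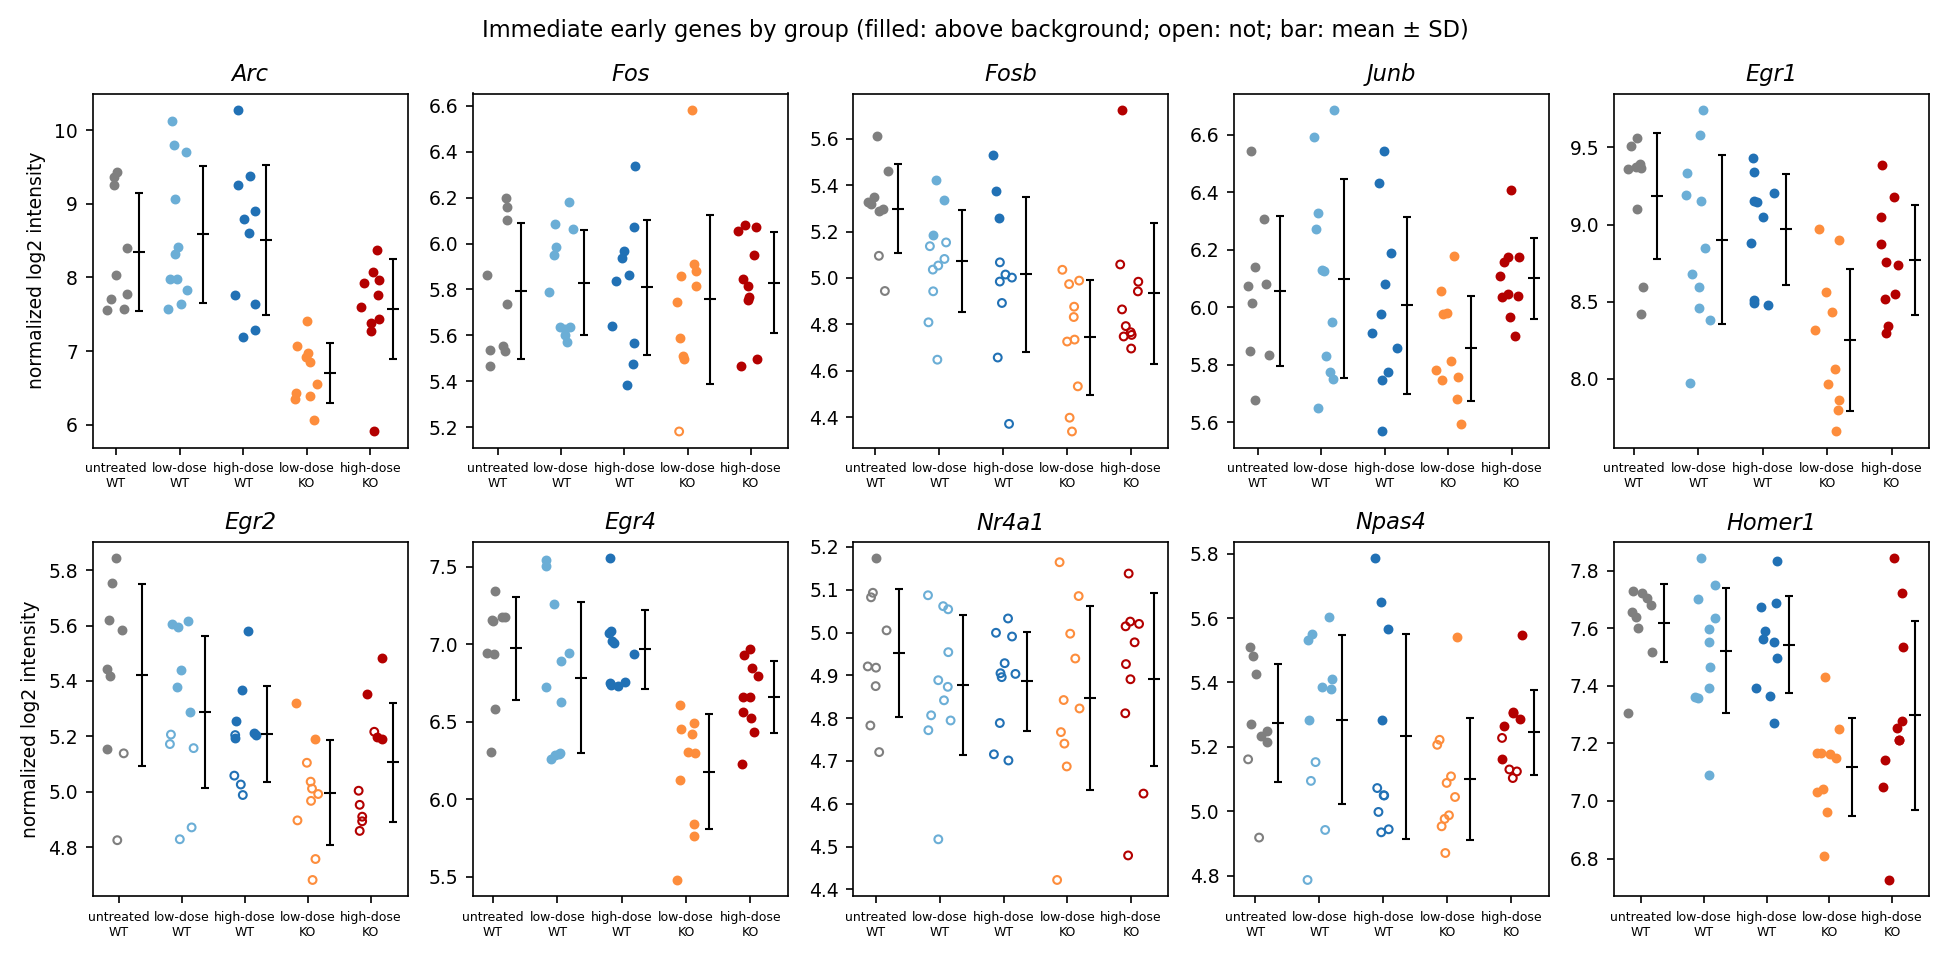
Normalized log2 intensity (y axis) of each of the 10 immediate early genes in every mouse, by group (x axis). Filled points are above the background of their array, open points are not, and bars give the mean ± SD of the 9 to 11 mice of a group. Low-dose knockouts have the lowest mean for each of the 9 tested genes, the Nr4a1 values being background, and the 10 Arc values of this group, 6.07 to 7.40, lie below all 11 low-dose wild types.

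Across the members, 5 of the 9 tested genes fell in low-dose knockouts relative to low-dose wild types and none rose. Among all tested probes 10.1% fell and 20.8% changed in either direction. All 9 fitted differences were below 0. Their median of -0.33 log2 units is the Fosb value, fitted to knockout signals within background, and the median over all tested probes was -0.0032. Against untreated wild types 6 of the 9 fell, with a median of -0.50, where 16.3% of all tested probes fell and 32% changed in either direction. Fosb is among the 6 and was above background on 14 arrays, of which 7 were untreated wild types. Without that group it would not have passed the filter, so its fall adds no support to the count. Both comparisons use the same knockout arrays and are not independent of each other. The genes were chosen with earlier results of these data known, so the counts beside these shares are a description.

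The Egr genes encode zinc finger transcription factors that bind the same GC-rich site. The lowest, median and highest log2 levels of Egr1 were 8.42, 9.37 and 9.56 in untreated, 7.97, 8.85 and 9.75 in low-dose and 8.48, 9.10 and 9.43 in high-dose wild types. In knockouts given the low dose they were 7.66, 8.19 and 8.97, and 8.30, 8.75 and 9.39 in those given the high dose. The groups overlapped, with 4 of 10 low-dose knockouts below the lowest low-dose wild type. Egr1 fell by 0.68 ± 0.19 log2 units relative to low-dose wild types (1.60-fold, adjusted p = 0.00626) and by 0.95 ± 0.20 relative to untreated wild types (1.93-fold, adjusted p = 0.000177).

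Egr4 was measured on all 50 arrays. Its lowest, median and highest log2 levels in untreated, low-dose and high-dose wild types were 6.30, 7.15 and 7.34, then 6.26, 6.73 and 7.54, and then 6.73, 6.97 and 7.55. In knockouts they were 5.48, 6.30 and 6.61 at the low dose and 6.23, 6.66 and 6.97 at the high dose. At the high dose the low end of the wild types, 6.73, lay above 6 of the 10 knockouts. Egr4 fell by 0.62 ± 0.16 log2 units against low-dose wild types (1.53-fold, adjusted p = 0.00365) and by 0.80 ± 0.17 against untreated wild types (1.75-fold, adjusted p = 0.000199). Egr2, better known for its role in myelinating Schwann cells, was dim and above background on 25 of 50 arrays, 7 of 9 in untreated wild types and 2 of 10 in low-dose knockouts. Its levels ran from 4.83 to 5.84 in untreated wild types and from 4.68 to 5.32 in low-dose knockouts, so the groups overlapped. It fell against untreated wild types (adjusted p = 0.00395), by an amount that was not well measured because most knockouts were within background, and its difference from low-dose wild types was -0.24 ± 0.11 (adjusted p = 0.109), which passed with no chip term (-0.29, adjusted p = 0.035).

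Homer1 encodes a scaffold that links metabotropic glutamate receptors to calcium stores, and its short, activity-induced form competes with the long forms for these partners. The chosen probe is annotated to transcript variant d, and a different, dimmer probe to variant S. Whether the chosen probe detects the short form is not given, so its values are not read as those of the induced form. Its lowest, median and highest log2 levels were 7.31, 7.66 and 7.73 in untreated, 7.09, 7.55 and 7.84 in low-dose and 7.27, 7.56 and 7.83 in high-dose wild types. In knockouts they were 6.81, 7.16 and 7.43 at the low dose and 6.73, 7.23 and 7.84 at the high dose. Low-dose knockouts were lower than untreated wild types with 9 of 10 mice below the whole wild type range, and high-dose knockouts spanned both. Homer1 fell by 0.39 ± 0.10 against low-dose wild types (1.31-fold, adjusted p = 0.00395) and by 0.50 ± 0.11 against untreated wild types (1.41-fold, adjusted p = 0.000323).

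The other Homer1 probes did not give the same call. A second probe of variant d differed by -0.27 ± 0.12 log2 units between low-dose knockouts and low-dose wild types (adjusted p = 0.118). A probe of variant S, above background on 19 of 50 arrays, differed by 0.0018 ± 0.10 (adjusted p = 0.994). The probe of variant L was above background on 0 of 50 arrays. The call therefore rests on 1 of the 2 probes of variant d.

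Fos, Fosb and Junb encode subunits of the AP-1 transcription factor, in which a Fos protein pairs with a Jun protein. Fosb was above background on 7 of 9 untreated wild types, 3 of 11 low-dose wild types and 0 of 10 low-dose knockouts. Its median log2 level was 5.32, 5.08 and 4.78 in these groups, with ranges of 4.94 to 5.61, 4.65 to 5.42 and 4.34 to 5.04. Fosb passed the test for a lower level in low-dose knockouts against low-dose wild types (adjusted p = 0.044) and against untreated wild types (adjusted p = 0.000284). Because no low-dose knockout was above background, its fold is a bound, at least 1.07-fold lower than in untreated wild types. The bound is the brighter group's mean log2 level against, on each array, the lowest signal among probes above background or the probe's own, whichever is higher. Against low-dose wild types this bound is under 1 and no fold is given, and the call was lost under 7 of 12 alternatives, with an adjusted p of up to 0.0907.

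Fos itself showed no difference that passed the test. Its lowest, median and highest log2 levels were 5.47, 5.73 and 6.20 in untreated and 5.57, 5.79 and 6.18 in low-dose wild types. In low-dose knockouts they were 5.18, 5.78 and 6.58, a range that covered both. The difference between low-dose knockouts and low-dose wild types was -0.04 log2 units with a 95% interval of -0.30 to 0.21 (adjusted p = 0.863). Falls of the size fitted for Arc, Egr1 or Egr4 lie outside this interval. The Fos probe was dim, with signals of 62.3 to 120.6 where background peaks lay at 48.3 to 70.6. The interval therefore holds for fitted values and does not exclude an equal fall of the RNA. Junb differed by -0.26 ± 0.11 (adjusted p = 0.0932) in the same comparison and by -0.26 ± 0.12 against untreated wild types (adjusted p = 0.0952, and 0.0234 with median scaling).

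Npas4, a neuronal transcription factor that calcium entry induces, was above background on 25 of 50 arrays, 1 of 10 in low-dose knockouts. Its median log2 level was 5.25 in untreated mice, 5.38 in low-dose wild types and 5.07 in low-dose knockouts. The difference between the last 2 groups was -0.19 ± 0.10 (adjusted p = 0.174). Nr4a1, an orphan nuclear receptor, was above background on 1 of 50 arrays, with signals of 46.4 to 77.7. No difference in Nr4a1 could be measured at this brightness.

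**Figure D2:**
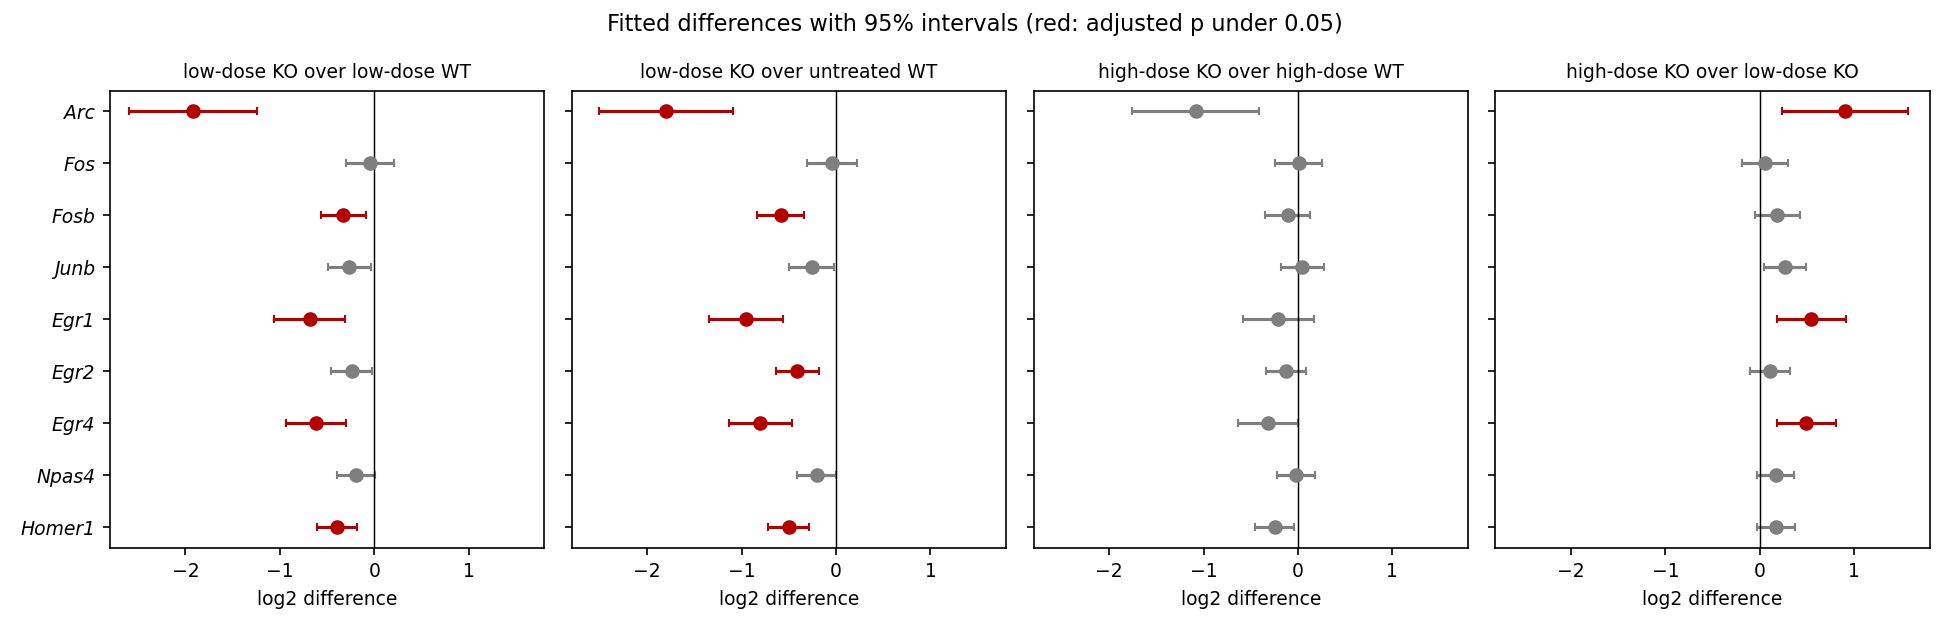
Fitted log2 differences (x axis) of the 9 tested genes (y axis) in 4 comparisons, with 95% intervals, where red marks an adjusted p under 0.05. In low-dose knockouts 5 genes fell against low-dose wild types and 6 against untreated wild types, and 3 rose from the low to the high dose in knockouts. The Fosb values are fitted to signals that were within background in all low-dose knockouts.

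The 2 knockout groups were compared to ask how the levels differed with the dose. Of the 9 genes, 3 were higher at the high dose and none lower, where 9.3% of all tested probes were higher and 19.9% differed in either direction. Arc rose by 0.91 ± 0.33 log2 units (1.87-fold, adjusted p = 0.0458), with 7 of 10 high-dose knockouts above the highest low-dose knockout. Egr1 rose by 0.55 ± 0.18 (1.46-fold, adjusted p = 0.0282) and Egr4 by 0.49 ± 0.16 (1.41-fold, adjusted p = 0.0199), and in both genes all 10 high-dose knockouts lay above the mean of the low-dose group. The direction was the same on 5 of 6 chips for Arc, 6 of 6 for Egr1 and 5 of 6 for Egr4. Each chip held only a few mice of either group. The remaining 6 genes had differences of 0.06 (Fos) to 0.27 (Junb) log2 units, and the adjusted p of Junb was 0.0852.

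Several of these calls changed with single arrays and with the processing, while the fitted differences changed less. Without the 5 arrays of lowest median signal (2 high-dose knockouts, 1 low-dose knockout and 2 low-dose wild types) 1 of the 9 genes passed. The Arc call was lost under 9 of 13 alternatives, with an adjusted p of up to 0.124 and differences of 0.74 to 0.97. The Egr1 call was lost under 1 of the 13 and the Egr4 call under 0, with differences of 0.49 to 0.64 and 0.35 to 0.52. Leaving out 1 mouse at a time, the Arc call was kept in 35 of 50 fits. The Egr1 call was kept in 45 and the Egr4 call in 49. The count of rises was 0 without low-dose knockout replicate 29, 1 without low-dose knockout replicate 30 and 1 without high-dose knockout replicate 4. Without replicate 29 the differences were 0.90 for Arc (adjusted p = 0.0612), 0.48 for Egr1 (adjusted p = 0.061) and 0.42 for Egr4 (adjusted p = 0.0504). By contrast the falls of Arc, Egr1, Egr4 and Homer1 against low-dose wild types were kept in all 50 fits, and that of Fosb in 35.

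At the high dose none of the 9 genes passed the test between knockouts and wild types, where 0.578% of all tested probes did. The Arc difference was -1.08 ± 0.34 log2 units (adjusted p = 0.13), with a 95% interval of -1.76 to -0.41. The Egr4 difference was -0.31 ± 0.16 (adjusted p = 0.456) and the Homer1 difference -0.25 ± 0.10 (adjusted p = 0.32). Of the 9 genes, 2 had an unadjusted p under 0.05. Whether the genotype difference changed with the dose was tested as an interaction, which none of the 9 genes passed (2.95% of all tested probes did). It was 0.84 ± 0.47 for Arc (adjusted p = 0.395), 0.47 ± 0.26 for Egr1 (adjusted p = 0.379) and 0.31 ± 0.16 for Junb (adjusted p = 0.336). A loss of the difference at the high dose is thus not shown for any of these genes.

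Between high-dose knockouts and untreated wild types none of the 9 genes passed, where 0.994% of all tested probes did. The lowest adjusted p was that of Fosb, 0.097, and the Arc difference was -0.89 ± 0.35 (adjusted p = 0.204). Without high-dose knockout replicate 4, Fosb (adjusted p = 0.0225) and Homer1 (adjusted p = 0.0405) passed. Among wild types the compound was not followed by any called difference at either dose in limma, in these genes or in any other probe (0% of the 13487 tested). An unadjusted p under 0.05 was reached by 1837 probes in low-dose and 909 in high-dose wild types against untreated mice, and by 527 between the doses. For Arc the difference from untreated wild types was 0.12 ± 0.34 in low-dose and 0.19 ± 0.34 in high-dose wild types.

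The order of the group means had low-dose knockouts last for the 9 tested genes. High-dose knockouts came next to last for Arc, Egr1, Egr2, Egr4, Fosb and Homer1, and first for Fos and Junb. The step from low-dose to high-dose knockouts passed the test for Arc, Egr1 and Egr4. None of the steps among the wild type groups, or from high-dose knockouts to the high-dose or untreated wild types, passed for any of the 9 tested genes.

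Levels also varied strongly between mice of the same group. The residual SD of Arc, after group and chip, was 0.80 log2 units, at percentile 99.9 of all tested probes, whose median was 0.20. Egr1 (0.44) and Egr4 (0.37) were at percentiles 97.0 and 94.4, and Npas4 (0.22) at 60.6, the lowest of the 9. Within the high-dose wild types alone the Arc signal ran from 186 to 1396.

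On arrays where 1 of these genes was high the others tended to be high as well, apart from Homer1. After group and chip means were removed, the 28 pairs without Homer1 all had positive correlations over the 50 arrays, with a median r of 0.51 (0.24 to 0.74). Of these pairs 27 passed a permutation test within groups after adjustment over all 36 pairs, and Fosb with Npas4 did not (r = 0.24, adjusted p = 0.134). The median over all pairs of 9748 tested genes was -0.001, and 1.39% of them were above 0.505. All points share the array, its RNA preparation and its scaling.

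Arc and Junb formed the closest pair, with r = 0.74 (rho = 0.76, permutation p = 1e-05, the smallest that could be reached, adjusted p = 6e-05). Without the 2 arrays farthest from the Arc median r was 0.68, and r was 0.27 to 0.91 within the 5 groups and 0.49 to 0.90 within the 6 chips. Fos and Egr1 had r = 0.70 (rho = 0.72, permutation p = 1e-05, adjusted p = 6e-05), 0.67 without the 2 farthest arrays, 0.42 to 0.87 within groups and 0.56 to 0.90 within chips. Fos thus went with Egr1 from mouse to mouse, although no difference between its groups passed the test. Egr1 and Egr4 also had r = 0.70 (rho = 0.64, permutation p = 1e-05, adjusted p = 6e-05), 0.65 without the 2 farthest arrays, 0.02 to 0.89 within groups, lowest in high-dose knockouts, and 0.19 to 0.94 within chips. Of the 28 pairs 12 were positive in every group and 21 on every chip. Correlations within groups kept differences between chips, and those within chips had only group means removed.

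**Figure D3:**
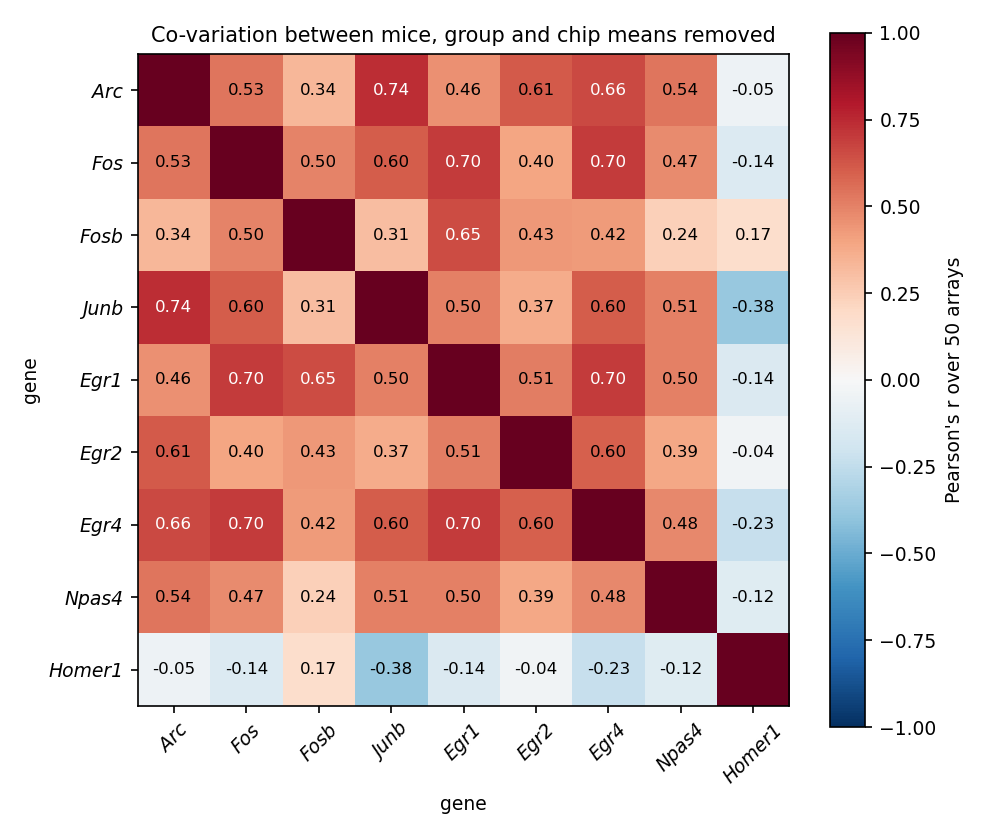
Pearson's r over 50 arrays between the 9 tested genes (both axes), after removal of group and chip means, with colour from -1 (blue) to 1 (red). The 28 pairs without Homer1 are all positive, and the Homer1 row runs from -0.38 to 0.17.

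Homer1, measured by its variant d probe, stood apart, with r from -0.38 to 0.17 and a median of -0.13 over its 8 pairs. Only the pair with Junb passed, and its r was negative (r = -0.38, rho = -0.44, permutation p = 0.00673, adjusted p = 0.00969, -0.38 without the 2 farthest arrays). That correlation ran from -0.83 in untreated wild types to 0.05 in high-dose wild types and from -0.78 to 0.09 within chips. The second probe of variant d gave r = 0.83 with the first and -0.36 with Junb. The variant S probe gave r between -0.07 and 0.02 with the other 8 genes, at a brightness close to background.

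Values within groups were taken without removal of chip means. The median r of the 28 pairs was 0.46 in untreated, 0.69 in low-dose and 0.70 in high-dose wild types. It was 0.32 in low-dose and 0.17 in high-dose knockouts, with 18 and 20 of the 28 pairs positive. In low-dose knockouts Fosb, Npas4 and Egr2 were above background on 0, 1 and 2 of 10 arrays, and most of the pairs hold at least 1 of these genes. In high-dose knockouts, where the median r was lowest, they were above background on 1, 6 and 4 of 10 arrays. Whether the dim genes bear on the correlations was not tested. The spread of the genes also ranked lower in both knockout groups. The median percentile of the members' SD among all probes was 58.9 in low-dose and 59.6 in high-dose knockouts, and 78.8 to 90.6 in the wild type groups. Whether the correlations differ between the groups was not tested. Within single chips, with group means removed, the median r was 0.31 to 0.67.

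**Figure D4:**
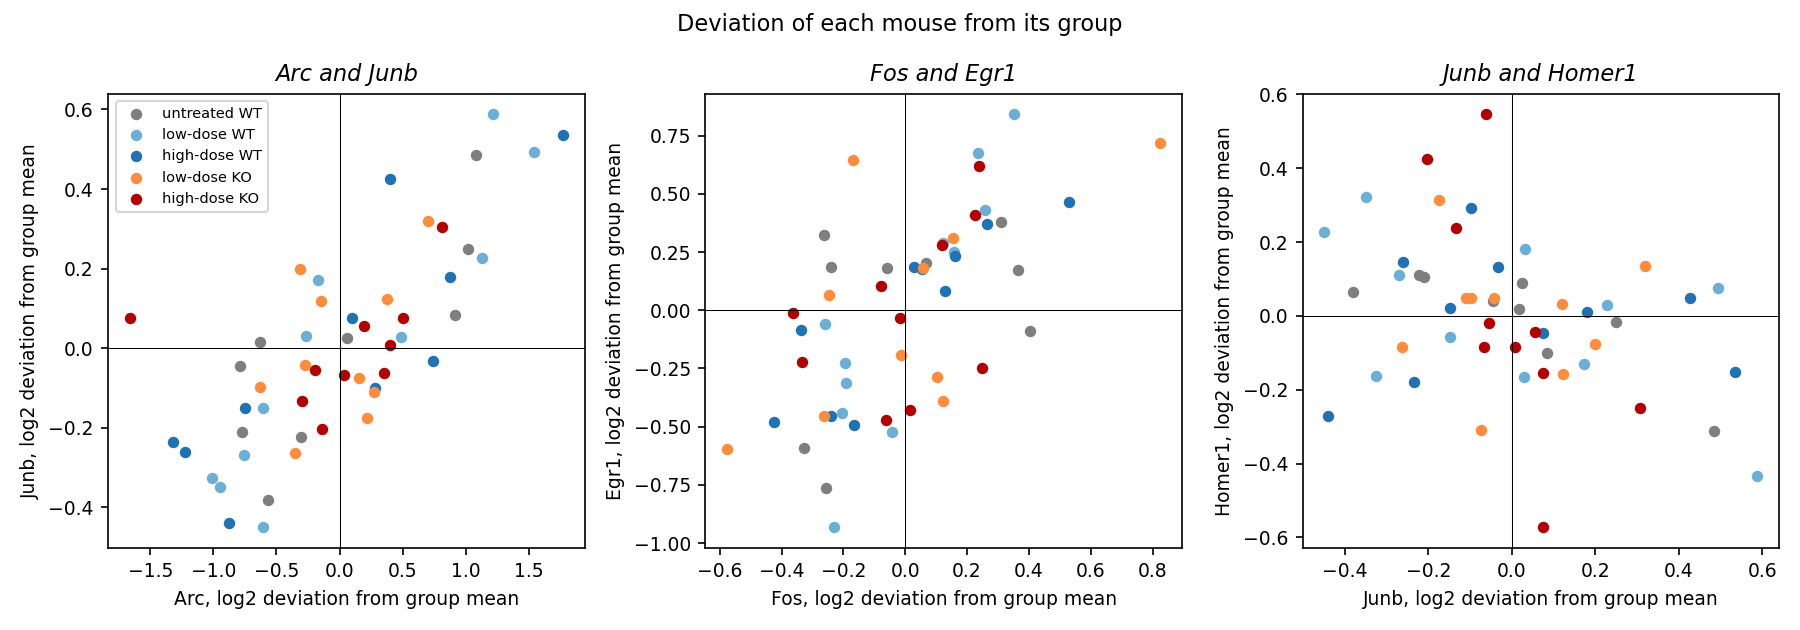
Deviation of each mouse from the mean of its group in log2 units, for Arc against Junb, Fos against Egr1, and Junb against Homer1, coloured by group. With chip means also removed, r over the 50 arrays was 0.74, 0.70 and -0.38.

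Marker genes of some cell types also differed between the groups, and others went both ways or hardly changed. Among all tested probes 10.1% fell and 20.8% changed in low-dose knockouts against low-dose wild types. Against untreated wild types 16.3% fell and 32% changed. From the low to the high dose in knockouts 9.3% rose and 19.9% changed. Small counts in lists this short are not read as results. Between low-dose knockouts and low-dose wild types 7 of 8 measured excitatory neuron markers and 4 of 9 presynaptic markers fell, as did 4 of 12 microglia, 3 of 9 oligodendrocyte and 2 of 8 interneuron markers. The summed level of the excitatory markers ran from 4404 to 7688 in low-dose knockouts, 5712 to 10605 in low-dose wild types and 8313 to 11486 in untreated wild types. Of the 10 astrocyte markers 3 rose and 2 fell, with sums of 20209 to 36027 in low-dose knockouts and 20693 to 33996 in low-dose wild types, and of the 7 striatal and 5 endothelial markers 0 fell and 1 endothelial marker rose. Between low-dose knockouts and untreated wild types 8 of 9 presynaptic, 7 of 8 interneuron, 6 of 8 excitatory, 6 of 9 oligodendrocyte and 4 of 7 striatal markers fell. In that comparison 5 of 10 astrocyte and 3 of 12 microglia markers rose and none of either list fell, and 0 of 5 endothelial markers changed. From the low to the high dose in knockouts 8 of 9 presynaptic, 7 of 8 interneuron, 4 of 8 excitatory, 4 of 7 striatal and 2 of 9 oligodendrocyte markers rose. Of the 10 astrocyte markers 4 fell and 1 rose, and 0 of 12 microglia and 0 of 5 endothelial markers changed. Their part in the differences of the immediate early genes was not tested.

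Between mice of a group, the same markers were set against the 9 genes in 99 relations, adjusted together. Egr4 and Egr1 were lower where the mean astrocyte level was higher, with r = -0.66 (rho = -0.63, permutation p = 1e-05, adjusted p = 0.000495) and r = -0.63 (rho = -0.60, permutation p = 2e-05, adjusted p = 0.000495). Without the 2 arrays farthest from the astrocyte median these were -0.62 and -0.61. Egr4 was higher where the presynaptic mean was higher (r = 0.65, rho = 0.64, permutation p = 1e-05, adjusted p = 0.000495, 0.59 without the 2 farthest arrays). Relations passed for 7 of 9 genes with astrocyte, 5 with microglia and 4 with presynaptic, interneuron, striatal and endothelial markers each. A further 3 genes passed with excitatory markers and 1 (Fosb) with the number of probes above background. None passed with oligodendrocyte markers, nuclear RNA or the median signal of the array. The nuclear RNA measure was Snhg11 alone, the only 1 of 5 listed genes on the array. Its r with the 9 genes ran from 0.05 to 0.36. With 1 gene, whether nuclear or cell body RNA in general went with the 9 genes cannot be decided. With the astrocyte and presynaptic means removed as well, the median r over the 36 pairs was 0.35, compared with 0.48 before.

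Other genes of the pathway were taken from lists of known activity-dependent genes and their regulators. The 4 genes named from each list are those with the smallest p in low-dose knockouts against low-dose wild types. Their p-values therefore do not stand for the lists. Their counts stand beside the 10.1% of all tested probes that fell and the 20.8% that changed in either direction against low-dose wild types, and 16.3% and 32% against untreated wild types. Of 19 measured upstream regulators 5 fell and 2 rose in low-dose knockouts against low-dose wild types, with a median of -0.16 log2 units. Against untreated wild types 5 fell and 3 rose, with a median of -0.06. Srf, the transcription factor of the CArG box, fell by 0.93 (adjusted p = 1.79e-07), and its highest low-dose knockout, 7.92, lay below the low-dose wild type median of 8.27. Hdac5, a histone deacetylase that leaves the nucleus on calcium signalling, fell by 0.68 (adjusted p = 1.19e-06), and the calcineurin subunit Ppp3cb by 0.35 (adjusted p = 0.000256). Rps6ka5, a kinase of CREB and histones, rose by 0.41 (adjusted p = 0.00151). From the low to the high dose in knockouts Srf rose by 0.70 (adjusted p = 3.91e-05) and Hdac5 by 0.62 (adjusted p = 8.63e-06), while Rps6ka5 fell by 0.30 (adjusted p = 0.022).

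Among 9 measured partners of Arc and Homer proteins 4 fell and none rose, with a median of -0.21. Against untreated wild types 5 fell and none rose, with a median of -0.36. Itpr1, the calcium channel of internal stores that Homer binds, fell by 1.11 log2 units (adjusted p = 5.89e-07), from a low-dose wild type range of 9.33 to 10.77 to 8.51 to 9.64. At the high dose it was 0.87 higher in knockouts than at the low dose (adjusted p = 4.86e-05). Camk2b fell by 0.55 (adjusted p = 0.00101), the postsynaptic scaffold Dlg4 by 0.51 (adjusted p = 0.00363) and the AMPA receptor auxiliary subunit Cacng2 by 0.39 (adjusted p = 0.0455).

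Of 8 measured transcription factors outside the 10 genes 1 fell and none rose, with a median of -0.08. Against untreated wild types 2 fell and none rose, with a median of -0.14. The gene that fell in both was Nr4a2, a nuclear receptor related to Nr4a1 (adjusted p = 0.00041 against low-dose wild types). It was above background on 1 of 10 low-dose knockouts, 9 of 11 low-dose wild types and 8 of 10 high-dose knockouts, with median levels of 4.76, 5.43 and 5.42, so the size of the fall was not well measured. Jun, a partner of the Fos proteins, differed by -0.21 (adjusted p = 0.137). From the low to the high dose in knockouts Nr4a2 rose (adjusted p = 0.000218), and Jun rose by 0.36 (adjusted p = 0.00631). Of 14 measured signalling and feedback genes 2 fell and 1 rose, with a median of -0.14, and the share called was near that of all tested probes. Against untreated wild types 6 fell and 1 rose, with a median of -0.10. The clock gene Per2 fell by 0.53 (adjusted p = 0.00098) and the phosphatase Dusp14 by 0.42 (adjusted p = 0.00784), while the MAP kinase phosphatase Dusp1 rose by 0.51 (adjusted p = 0.043).

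Of 15 measured slower genes 2 fell and 1 rose, with a median of -0.23, and here too the share called was near that of all tested probes. Against untreated wild types 11 fell and 1 rose, with a median of -0.70. Rasgrp1, a Ras activator, fell by 0.51 (adjusted p = 0.000514) and the receptor gene Mas1 by 0.60 (adjusted p = 0.0154). Rheb, a small GTPase that activates mTOR, rose by 0.40 (adjusted p = 0.00662). Bdnf, the neurotrophin, differed by -0.26 (adjusted p = 0.149). The medians of these lists are set against -0.0032 over all tested probes in the comparison with low-dose wild types and 0.0097 in that with untreated wild types.

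The genes whose deviations were most like those of the 9 members were found by their mean r with them over 50 arrays. These were Celsr3 (0.45), Aatk (0.44), Lingo1 (0.43), Pdgfb (0.43), Gprin1 (0.42), Mmp24 (0.42), Per1 (0.42), Clmp (0.42), B3gat1 (0.41) and Chd5 (0.41). By r with Arc alone they were Usb1 (0.57), Tmem28 (0.52), Klhl21 (0.48), Cep112 (0.48) and Rasl10b (0.48), all below the r of 0.74 between Arc and Junb.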

How the data were processed

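Per the file headers, the deposited table held bead signals, an intensity, for 25697 probes on each of 50 Illumina MouseRef-8 arrays, 1 for each mouse, with no scaling visible in the values. A second deposited table held the authors' normalized log2 values of the same arrays, made by a method not given in the sources used here, and served as an alternative. No negative control probes or detection values were in the signal table. Signals were corrected in limma 3.58.1 (R 4.3.3) with normexp fitted to all probes (offset 16), quantile normalized and turned to log2. A probe was above background where its signal exceeded the lower peak of its array by 1.645 SD, and probes above it on at least 9 arrays (13487 probes of 10111 genes) were tested. Background peaks lay at 48.3 to 70.6, and no 2 arrays were identical.

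A linear model in limma with group and chip as factors was fitted to all 50 arrays (39 residual and 7.37 prior degrees of freedom). P-values were adjusted by Benjamini-Hochberg over the tested probes of a comparison and called under 0.05. Values after ± in differences are standard errors. Correlations over the 50 arrays used residuals of this model and two-sided permutation tests with 100000 resamples within groups. Correlations within a group used levels without removal of chip means. Those within a chip used levels with group means removed. The scripts were tested on simulated data. In 300 simulated pairs without correlation, 7% reached a permutation p under 0.05, so the permutation p-values may be slightly too small.

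The 10 genes and the lists were chosen with earlier results of these data known. Named besides the 10 genes were the 4 genes of each companion list with the smallest p in low-dose knockouts against low-dose wild types, Bdnf and Jun among them by this rule, and the 10 and 5 genes most like the members and Arc. Names of 7082 probes were updated with the RefSeq table of GRCm38.p6. Alternatives covered background correction, scaling, filter, chip, dim arrays, other probes and leaving out each mouse.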

Additional observations from a re-analysis of the deposited data

Results flagged for a closer look

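In 7 of 36 sets of levels (9 genes in 4 groups of 10 or fewer mice) 1 mouse lay far from the others by Dixon's test, where chance gives about 1 in 20. In high-dose knockouts the lowest Arc level was 5.91 and the next 7.27, while the same mouse had the highest Egr1 level of its group, 9.39, and the lowest Homer1 level, 6.73. Also in high-dose knockouts, the highest Fosb level was 5.73, with the next at 5.06, and the highest Npas4 level was 5.55, with the next at 5.31. In low-dose knockouts the highest Fos level was 6.58, with the next at 5.91, and the highest Npas4 level was 5.54, with the next at 5.22. The highest Egr4 level in high-dose wild types was 7.55, with the next at 7.09. The lowest Homer1 level in untreated wild types was 7.31, with the next at 7.52.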

How the results depend on the processing

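Of the differences of a gene in a comparison, 14 passed the test as reported, 16 passed as reported or under at least 1 of the 13 alternatives, and 65 passed under none of them. Genes that fell in low-dose knockouts numbered 4 to 6 against low-dose wild types and 4 to 7 against untreated wild types over the alternatives, and 4 to 6 and 6 to 7 when each mouse was left out in turn. The count of 4 against untreated wild types came from the stricter filter, which tested only 6 of the genes. With the chosen probes, none of the 6 falls was lost under any of the 13 alternatives that tested the gene. The Homer1 fall did not pass with the second probe of variant d (-0.28, adjusted p = 0.0898). Rises from the low to the high dose in knockouts numbered 1 without the 5 dimmest arrays and 0 to 4 when each mouse was left out. The count between high-dose knockouts and untreated wild types was 0 to 2 in the same way. In all other comparisons it remained 0. The Homer1 variant S probe reversed the sign of the difference, to 0.0018 against low-dose and 0.013 against untreated wild types, and the cause was not tested. The median r over the 36 pairs was 0.35 to 0.53 over the alternatives and 0.42 to 0.49 when each mouse was left out. No paired analysis was possible because the replicate numbers of the labels are not shared between groups. Fosb, Egr2, Npas4 and Nr4a1 lay close to background, which limits what can be measured for them.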
